A study of Mus musculus with 13 samples.

Results

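The effect of 1 injection of LPS on open chromatin in microglia was measured over both arms of the study at once, in mice whose microglia had been left in place and in mice whose microglia had been removed and had grown back. All libraries of the groups PL and PBL (5 libraries, LPS) were compared with all libraries of PP and PBP (4 libraries, PBS only), with the arm, BLZ945 or vehicle, as a block term. These are 9 of the 13 libraries of the series. The assay was ATAC-seq, in which a transposase cuts open chromatin and tags it for sequencing, so that a high count in a peak marks an accessible region.

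All animals were male C57BL/6J mice. Every group used here received PBS as its first intraperitoneal injection at 10 weeks of age. From 1 week later PBP and PBL were given the CSF1R inhibitor BLZ945 at 169 mg/kg per day for 5 days, and PP and PL its vehicle HPβCD. The later injection came 5 weeks after the first and was PBS in PP and PBP and LPS at 1 mg/kg in PL and PBL. Cells were taken 3 h later, at 15 weeks of age, and sorted as CD11b-high, CD45-intermediate and Ly6c-negative. For 1 library 40000 cells from each of 2 animals were combined. A replicate is thus a pool, and p-values measure the spread between pools. PBL 3_4 and PBL 4_5 both carry the animal number 4, and the sources used here do not say if 1 animal went into both. The remaining 4 libraries of the series came from mice given LPS at both injections and entered only the alternative model of all 13 libraries.

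Microglia are the resident macrophages of the brain and depend on the receptor CSF1R for survival. LPS, a component of the outer membrane of Gram-negative bacteria, is recognised by CD14 and the TLR4 complex, whose adaptors activate NF-kB, MAP kinases with AP-1, and interferon regulatory factors. In macrophages these factors act mostly at enhancers that are already marked by lineage factors such as PU.1, and inflammatory signals are known to lower the expression of genes that mark resting microglia.

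The 9 libraries held 927840 to 2772688 counts in peaks. Peaks within 1 kb of a start site took 53.2% of the counts in PL 3_4 and 56.9% to 60.1% in the other 8. The difference in this share between LPS and PBS was -2.20 percentage points (-3.59 in the vehicle arm and -0.81 in the BLZ945 arm), with a two-sided p of 0.117 by an exact permutation test within the arms, whose smallest possible p is 0.0167. The deposited sample sheet names the isolation day and the sorter. PP shared its day with PL 3_4, PBP shared another day with PL 1_2, and PBL had a day and a sorter of its own, so in the BLZ945 arm LPS and the sorting cannot be told apart, whereas the vehicle arm used 1 sorter throughout. In a fit with the isolation day in place of the arm, only the PL libraries are set against PBS libraries of their own day, and on 1 of these days the 2 kinds of library also differ in BLZ945. Values from that fit are called same-day values below.

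The sorted cells were checked against markers of microglia and of other cells. Beside the counts that follow, 6.48% of all 13687 tested loci rose and 3.56% fell. Of 11 microglial marker genes with a tested locus, 7 fell and 0 rose with LPS, and 0 rose at an unadjusted p under 0.05 or by DESeq2 or limma. Part of the markers of the labelled cell type were thus themselves lower with LPS. The other 4, among them P2ry12 and Csf1r, were not called. In fits that left out 1 library, 4 to 7 of the markers were called lower. Their summed level was 1603 to 1960 CPM in the PBS libraries and 1438 to 1541 CPM in the LPS libraries. Per tested locus, microglial markers averaged 160 CPM without and 134 CPM with LPS, and astrocyte markers 113 and 115 CPM. Of 9 markers of macrophages from brain borders or bone marrow, 3 rose (F13a1, Cd36 and Dab2) and 1 fell (Clec12a), and their summed level was 356.5 to 489.5 CPM without and 457.8 to 605.5 CPM with LPS. Of 4 monocyte markers 1 rose (Plac8), with sums of 151.3 to 183.2 CPM and 175.1 to 230.5 CPM, and Ly6c1 and Ly6c2 had no tested locus. Neutrophil markers summed to 79.69 to 95.21 CPM without and 69.52 to 88.97 CPM with LPS, and S100a8, Ly6g, Camp, Mpo and Elane had no tested locus. Of 7 endothelial and mural markers 2 rose (Flt1 and Cldn5), with sums of 316.7 to 385.1 CPM and 376.5 to 507.0 CPM. Of 4 neuronal markers 2 fell (Snap25 and Rbfox3), with sums of 83.55 to 130.7 CPM and 86.3 to 96.14 CPM. DESeq2 called 0 neuronal markers lower. Of 7 oligodendrocyte markers 1 fell (Opalin), with sums of 450.6 to 490.4 CPM and 437.1 to 500.4 CPM. No tested marker of lymphocytes (359.9 to 434.9 and 366.1 to 437.1 CPM) or astrocytes (319.0 to 367.3 and 313.6 to 410.8 CPM) was called. The part of these cells in the results was not tested. In bulk material, more cells of a kind and more open chromatin per cell cannot be told apart.

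More regions gained than lost accessibility with LPS. Of 37183 tested peaks, 4816 (13%) passed the test, 3261 (8.77%) with more and 1555 (4.18%) with less accessibility. Peaks that rose had a median of 13.5 CPM (counts scaled so that libraries of different depth compare) in the PBS libraries and 25.6 CPM in the LPS libraries, and 1243 of them (38.1%) changed by at least 2-fold. Those that fell went from a median of 25.6 to 15.6 CPM, and 263 (16.9%) changed by at least 2-fold. In 2611 of the risen peaks (80.1%) and 1037 of the fallen peaks (66.7%), the LPS and PBS libraries did not overlap in either arm, and over all tested peaks 3681 (9.9%) and 2174 (5.85%) were separated in this way. Without PBP 1_2 the number of calls was 3036, and with same-day values it was 2930. In simulated data, 20% of peaks changed by 1.5-fold and 98% of peaks changed by 3-fold were recovered, so a peak that was not called may still have changed by a small factor.

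The peak with the smallest p lay over a start site of Map3k8 (chr18:4336162-4336932, GRCm38), which encodes the kinase TPL2 that carries the LPS signal to ERK. It held 21.1 and 20.0 CPM in PP, 26.3 and 21.2 in PBP, 108 and 119 in PL, and 101, 117 and 112 in PBL. All 5 LPS libraries stood far above all 4 PBS libraries, and the log2 fold change was 2.31 ± 0.14 (SE, adjusted p = 1.39e-23), or 4.95-fold. The arms gave 2.47 in the vehicle arm and 2.21 in the BLZ945 arm, and the same-day value was 2.33 (adjusted p = 5.66e-19). Another peak, in an exon (chr18:4333669-4334030), rose by 2.16, and 6 of the 9 tested peaks nearest to Map3k8 were called higher.

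The other 13 leading rises lay in introns or between genes. For every leading rise, Map3k8 included, the naming rule required separate LPS and PBS libraries within each arm. The largest log2 change among them was at chr16:93246704-93247456, far from any start site, which held 10.5 and 9.0 CPM in PP, 6.73 and 6.81 in PBP, 59.4 and 62.0 in PL, and 50.7, 58.5 and 57.0 in PBL. PBS libraries were low there and all LPS libraries were high (log2 fold change 2.85 ± 0.20 (SE, adjusted p = 1.85e-19)). An intron of Aig1, which encodes a lipid hydrolase, held a peak (chr10:13832531-13833106) with 19.0 and 16.0 CPM in PP, 12.8 and 10.6 in PBP, 63.0 and 72.7 in PL, and 56.3, 79.9 and 65.5 in PBL. The libraries again fell into separate ranges, with a log2 fold change of 2.26 ± 0.18 (SE, adjusted p = 4.50e-17). Tbc1d14, a regulator of autophagy, had an intronic peak (chr5:36538554-36539190) with 19.0 and 18 CPM in PP, 15.3 and 18.2 in PBP, 62.4 and 61.5 in PL, and 63.4, 83.6 and 75.8 in PBL. All LPS libraries stood well above all PBS libraries (log2 fold change 2.00 ± 0.16 (SE, adjusted p = 6.42e-16)). Upstream of Noct, which encodes the circadian protein nocturnin, chr3:51195234-51195693 held 8.44 and 11.0 CPM in PP, 6.12 and 5.29 in PBP, 33.3 and 43.8 in PL, and 31.7, 41.8 and 50.8 in PBL. These counts are low, but the groups were separate and the log2 fold change was 2.47 ± 0.23 (SE, adjusted p = 8.82e-14).

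Bcl3 encodes an atypical IkB protein that binds NF-kB subunits in the nucleus. Its leading peak (chr7:19817336-19818033) held 27.4 and 30.0 CPM in PP, 30.6 and 21.2 in PBP, 70.1 and 79.7 in PL, and 84.5, 86.8 and 75.4 in PBL. LPS libraries were high in both arms, with a log2 fold change of 1.53 ± 0.14 (SE, adjusted p = 1.49e-13), and 6 of the 7 tested peaks at Bcl3 rose, by 0.66 to 2.15 on the log2 scale. The other leading rises lay at chr2:73037288-73038141, in an intron of Myo1e (chr9:70284585-70285327), upstream of Slc44a3 (chr3:121570557-121571078), in an intron of Ildr1 (chr16:36720169-36720693) and at 4 positions farther than 50 kb from a start site (chr13:107607161-107607763, chr19:21031643-21032380, chr12:25438206-25439112 and chr12:35799072-35799862). Their log2 fold changes ran from 1.34 to 2.00, and in each the LPS and PBS libraries were separate in both arms, which the rule for naming them required.

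The 14 leading falls included peaks at 4 genes known as markers of resting microglia or their identity, Siglech, Gpr34, Mertk and Sall1. As for the rises, the naming rule required separate LPS and PBS libraries within each arm. Siglech, a sialic acid-binding lectin used as a microglial marker, had its strongest fall at chr7:55744255-55745209, upstream of the gene, with 46.4 and 48.0 CPM in PP, 36.7 and 48.4 in PBP, 17.2 and 11.8 in PL, and 15.5, 9.29 and 11.0 in PBL. Every LPS library lay far below every PBS library, and the log2 fold change was -1.80 ± 0.18 (SE, adjusted p = 1.83e-12), with a same-day value of -1.62 (adjusted p = 7.62e-07). All 4 tested peaks within 50 kb of Siglech fell. Gpr34, a receptor for lysophosphatidylserine, lies inside the gene Cask, and the peak chrX:13606822-13607121, in an intron of Cask, held 12.7 and 8.00 CPM in PP, 14.7 and 26.5 in PBP, 3.56 and 1.07 in PL, and 2.82, 2.32 and 0.736 in PBL. The signal was close to lost with LPS, at a log2 fold change of -3.03 ± 0.34 (SE, adjusted p = 7.32e-11), and a neighbouring peak (chrX:13618525-13618970) fell by 2.40 on the log2 scale. At the promoter of Mertk, a receptor kinase for the uptake of dying cells, chr2:128698133-128699398 held 123 and 122 CPM in PP, 95.4 and 103 in PBP, 65.4 and 47.0 in PL, and 70.4, 56.6 and 46.0 in PBL. The ranges were separate, with a log2 fold change of -0.95 ± 0.12 (SE, adjusted p = 1.45e-09).

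Sall1 encodes a transcription factor that defines microglia. A peak at chr8:89392722-89393163, a distal position whose nearest start site is that of Sall1, held 52.7 and 50.0 CPM in PP, 58.7 and 63.5 in PBP, 21.4 and 30.5 in PL, and 30.3, 27.9 and 24.7 in PBL. Each LPS library lay below each PBS library, with a log2 fold change of -1.09 ± 0.15 (SE, adjusted p = 3.42e-08), and 6 of the 15 tested peaks nearest to Sall1 fell, among them the promoter peak (log2 fold change -0.66 ± 0.10 (SE, adjusted p = 1.51e-06)). Vsir, which encodes the checkpoint receptor VISTA, had an intronic peak (chr10:60362072-60362751) with 50.6 and 59.0 CPM in PP, 69.7 and 74.9 in PBP, 36.8 and 31.0 in PL, and 31.0, 33.0 and 27.2 in PBL. It was lower in every LPS library (log2 fold change -1.04 ± 0.14 (SE, adjusted p = 4.03e-08)). At the promoter of Uba7, the enzyme that activates the ubiquitin-like protein ISG15, chr9:107983416-107983941 held 58.0 and 54.0 CPM in PP, 60.0 and 52.9 in PBP, 25 and 24.6 in PL, and 21.1, 26.0 and 26.5 in PBL. Here the 5 LPS libraries spanned a narrow range below all PBS libraries (log2 fold change -1.18 ± 0.15 (SE, adjusted p = 3.65e-09)).

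The other leading falls were at the promoter of 4931408C20Rik, near Pik3r4, Pepd, Umodl1 and D7Ertd443e, and at 3 positions far from start sites (chr3:103401066-103401823, chr2:173335632-173336400 and chr7:121516695-121517882), with log2 fold changes of -1.95 to -0.98. Of the 28 leading peaks, 27 were called with same-day values and all 28 kept their sign. The exception was 4931408C20Rik_1, whose same-day value was -0.78 (adjusted p = 0.0894) and whose PP libraries (156 and 140.1 CPM) stood far above its PBP libraries (68.5 and 79.4 CPM).

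**Figure D1:**
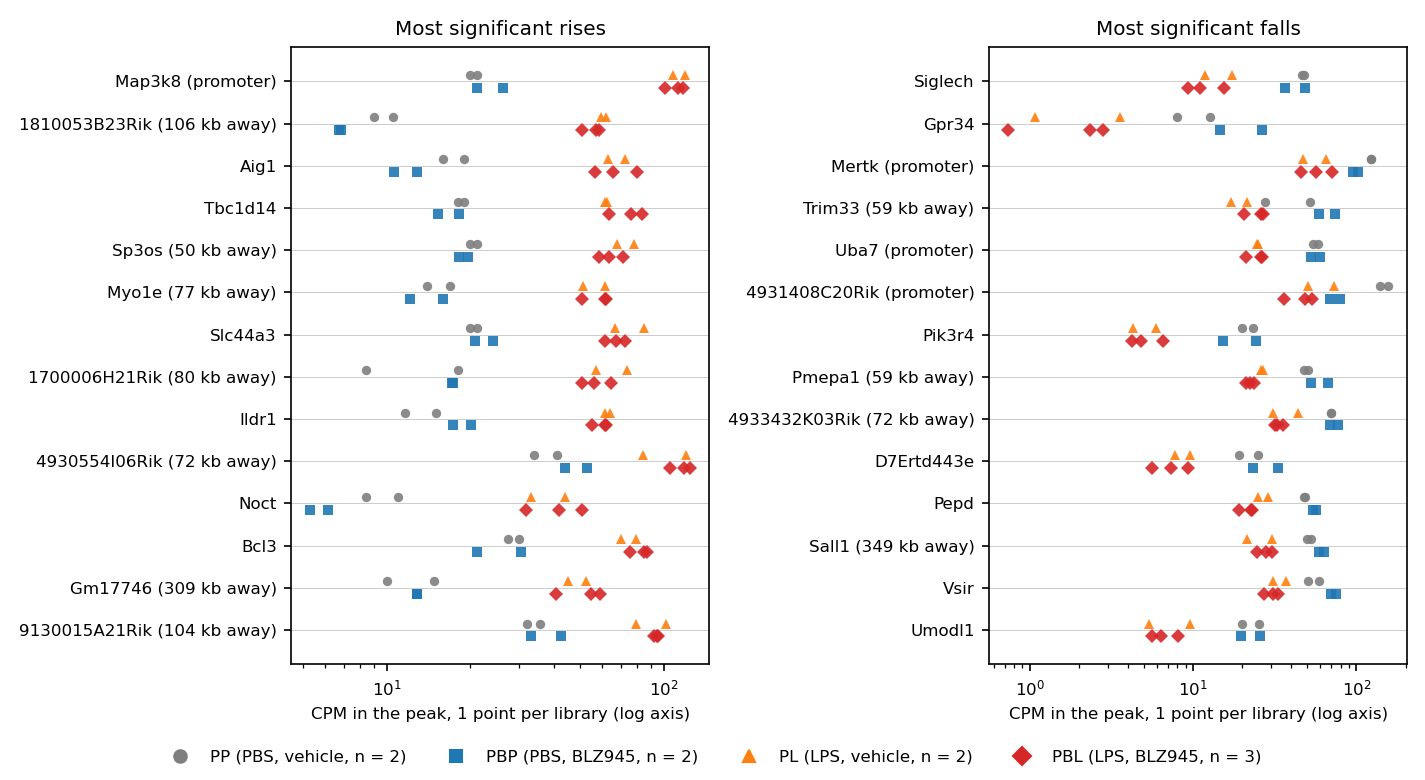
CPM of the 14 leading rises and 14 leading falls in each of the 9 libraries, on a log axis, with 1 point per library and a colour for each group (PP, PBP, PL, PBL). In every peak the LPS points (PL and PBL) lie on 1 side of the PBS points (PP and PBP) of their own arm, which the rule for naming the peaks required.

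Both arms were also tested on their own, in a model with the 4 group means. The vehicle arm (2 libraries against 2) gave 2445 called peaks (6.58%), 1598 higher (4.3%) and 847 lower (2.28%), and the BLZ945 arm (3 against 2) gave 3463 (9.31%), 2383 higher (6.41%) and 1080 lower (2.9%). The counts cannot be ranked, since the arms differ in libraries and depth, and the vehicle arm depended on its PL pair: 4880 peaks were called without PL 1_2 and 642 without PL 3_4. Removal of PP 1_2 or PP 3_4 left 647 or 737, and in the BLZ945 arm removal of PBP 1_2 or PBP 3_4 left 1513 or 1531. By gene locus (peaks within 50 kb summed) the vehicle arm gave 1236 of 13687 (9.03%), 762 higher (5.57%) and 474 lower (3.46%), and the BLZ945 arm 874 (6.39%), 591 higher (4.32%) and 283 lower (2.07%). The PL pair differed from each other by a chi-square per degree of freedom of 1.84, against 1.01 to 1.15 for the other replicate pairs. Peaks that rose in the comparison of all 9 libraries had a median log2 fold change of 0.85 in the vehicle arm and 0.92 in the BLZ945 arm, and those that fell had -0.65 and -0.72. The sign was the same in both arms for 3245 of the 3261 (99.5%) and 1534 of the 1555 (98.6%), a description only, since each arm is part of the comparison that chose these peaks.

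The test of the difference itself, the LPS effect in the BLZ945 arm minus that in the vehicle arm, called 15 peaks (0.0403%), 12 with a higher and 3 with a lower value in the BLZ945 arm, and 3808 peaks had an unadjusted p under 0.05. DESeq2 called 0. Of 13687 gene loci, edgeR called 0 (0%), with 1754 at an unadjusted p under 0.05 and a smallest adjusted p of 0.0663. Leaving out a library changed the number of called peaks: it was 0 after removal of PP 1_2, PP 3_4, PL 3_4 or PBL 1_2, 1 and 2 after removal of PBP 3_4 or PBP 1_2, 5 after removal of PBL 4_5, 11 after removal of PBL 3_4 and 901 after removal of PL 1_2.

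**Figure D2:**
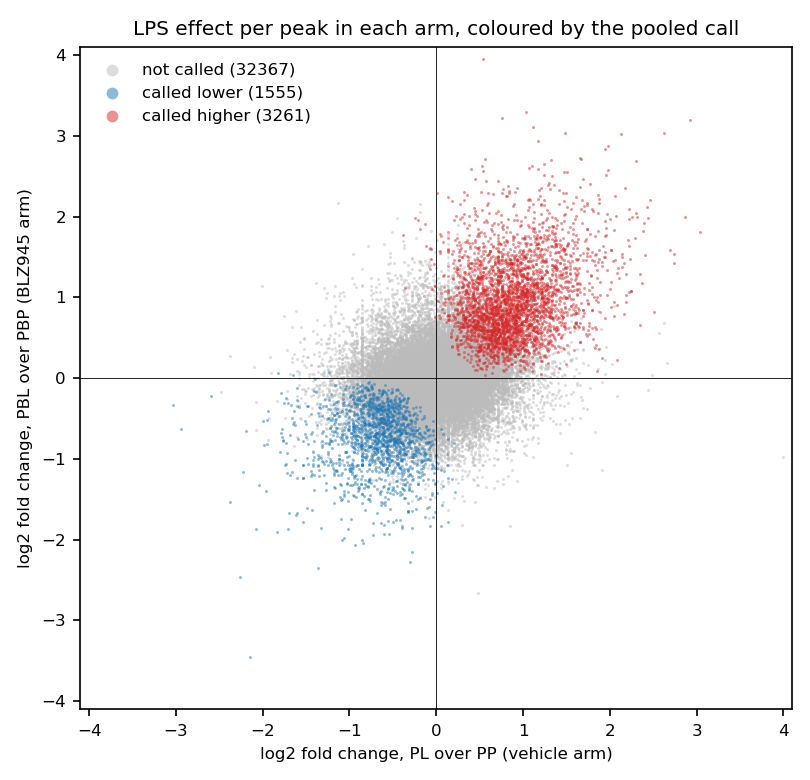
Log2 fold change of LPS over PBS in the vehicle arm (x axis) against that in the BLZ945 arm (y axis), 1 point per tested peak, coloured by the call over all 9 libraries. Of the peaks called higher 3245 of 3261 lie in the upper right, of those called lower 1534 of 1555 lie in the lower left, and 1 peak beyond the axis limit of 4 is drawn at the edge.

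In the 6 leading peaks of that test both PP libraries lay above both PBP libraries, and in 4 of them above all other libraries, the exceptions being Myo1d_2 and Mir704_5, where PBL 1_2 lay between the PP libraries. Mid1, which encodes a microtubule-associated ubiquitin ligase, spans the boundary of the pseudoautosomal region, so reads there may be shared between the sex chromosomes and its values are uncertain. At chrX:170019497-170019979 near Mid1 the libraries held 56.9 and 64.0 CPM in PP, 19.0 and 18.2 in PBP, 26.1 and 16.0 in PL, and 32.4, 21.4 and 17.3 in PBL. PP stood apart from the other 7 libraries, including the PBP libraries that had not received LPS either, and the difference between the arms was 1.80 on the log2 scale (adjusted p = 0.0230). Promoter peaks of Cep112, Inpp5k and Myo1d also had higher values in PP than in PBP. At Myo1d, which encodes an unconventional myosin, there were 27.4 and 22.0 CPM in PP, 9.18 and 9.08 in PBP, 16.6 and 6.41 in PL, and 23.9, 13.9 and 19.1 in PBL. Of the groups without LPS, PP was again the higher, and the difference was 2.14 (adjusted p = 0.0355).

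Where a peak lay was related to how often it rose. Of 13774 promoter peaks 3.52% rose and 3.65% fell, whereas of 11562 intronic peaks 12.2% rose and 4.61% fell, and of 9017 intergenic peaks 12.0% rose and 4.16% fell. Promoter peaks made up 37.0% of the tested peaks, 14.9% of the risen and 32.3% of the fallen. By distance, 2.6% of peaks over a start site rose (95% exact binomial interval 2.31% to 2.91%), 7.17% of those up to 1 kb away (6.24% to 8.2%), 10.8% at 1 to 5 kb, 11.8% at 10 to 50 kb and 14.7% at 50 to 100 kb (13.3% to 16.2%). The intervals cover counting over peaks, which are not replicates. Falls were nearly even over distance, from 3.55% over a start site to 4.61% at 50 to 100 kb, except for 8.72% (7.33% to 10.3%) beyond 100 kb.

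The pattern for rises held in each of 3 further fits, made because PL 3_4 had a low promoter share, PBP 1_2 decided the number of calls and isolation day moved with the groups. Promoters made up 16.4% of the rises without PL 3_4, 14.1% without PBP 1_2 and 12.9% with same-day values. For falls it did not hold: promoters made up 23.8% of falls without PL 3_4, 30.6% without PBP 1_2 and 53.2% with same-day values. The share of peaks beyond 100 kb that fell was 11.0%, 5.74% and 2.59% in the same fits.

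**Figure D3:**
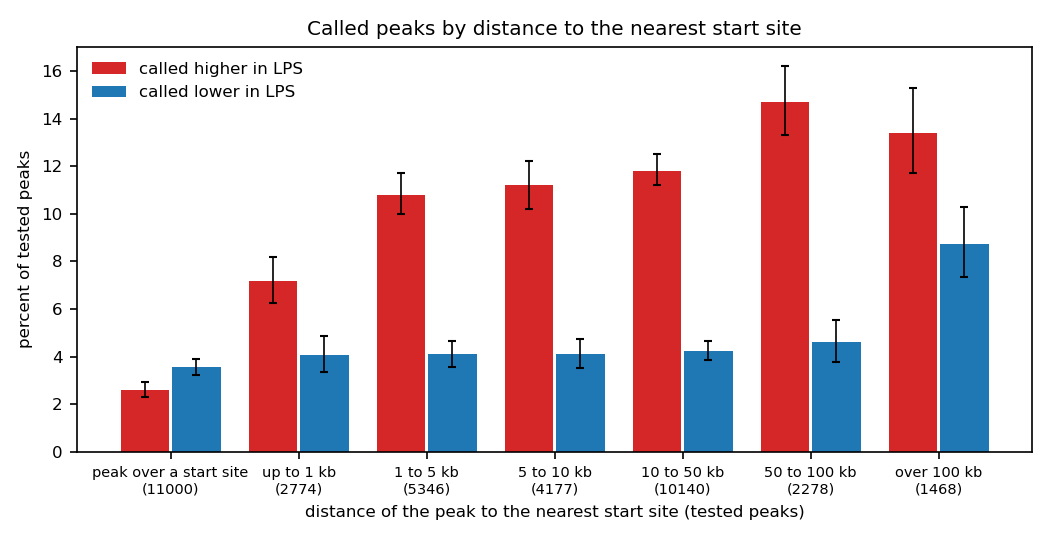
Percent of tested peaks called higher and called lower with LPS (y axis) by distance of the peak to the nearest start site (x axis), with 95% exact binomial intervals as error bars. Rises climb from 2.6% over start sites to 14.7% at 50 to 100 kb, and falls stay between 3.55% and 4.61% up to 100 kb.

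Of 13677 genes with a tested peak within 50 kb, 1849 had at least 1 peak that rose and 203 had 3 or more, while 1112 had at least 1 that fell and 31 had 3 or more, and 166 had both. Among 5226 genes with both promoter and distal peaks, a rise was seen in distal peaks alone at 1023, in promoter peaks alone at 152 and in both at 154, and a fall at 418, 225 and 73. Rbm47, which encodes an RNA-binding protein that acts in RNA editing, had the most risen peaks (9 of 18), followed by Gm19510 and Pacsin2, an endocytosis adaptor (8 of 14 each), and Rbpj, the DNA-binding factor of Notch signalling (8 of 17). Soga1 had the most fallen peaks (6 of 11), followed by Rgs10, a regulator of G protein signals in microglia (5 of 9). These genes were chosen by these counts after their values were seen.

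For a view by gene, the counts of all peaks within 50 kb of a gene's start site were summed to a locus. Of 13687 tested loci 1374 (10%) were called, 887 higher (6.48%) and 487 lower (3.56%), with a median log2 fold change of -0.01 over all loci. LPS and PBS libraries were separate in both arms at 1161 loci in the higher direction (8.48%) and 837 in the lower (6.12%). A locus sum can hide a peak that moves alone, and its call can depend on the distance used. Of the called loci named below, 10 kb in place of 50 kb lost Traf6, Batf, Trim30a, Hdac4, Bach1, Ccl5, Tcf4, Itgam, Inpp5d and Tmem119. A distance of 1 kb lost Traf6, Batf, Trim30a, Hdac4, Bach1, Itgam and Tmem119 too. It also lost Osm, Il4ra, Fosl2, Zeb2, Slc2a1, Hif3a, Cd300lf, Cd83, Nfkbia, Fkbp5, Cd33, Hdac7, Dnmt3a and Jund. The lists below were grouped by role, and 8 of them were set apart because edgeR called no member lower. Their 215 tested members held 60 higher calls, and the 0 lower calls were fixed by that choice. In edgeR's test 11 were lower at an unadjusted p under 0.05, and DESeq2 and limma called 0 lower. The remaining lists all had members that fell, and their counts are given below. Each list's counts are to be read beside the 6.48% of all loci that rose and the 3.56% that fell. Counts with same-day values follow each list's count. Of all 13687 loci, 611 rose and 255 fell with same-day values, fewer than the 887 and 487 of the main fit.

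The sensing and relay list holds the Toll-like receptors, their co-receptor CD14 and the adaptors and kinases downstream. Of 39 tested loci 5 rose and 0 fell (6 and 0 with same-day values), with a median log2 fold change of 0.07. The Map3k8 locus led with 109 and 112 CPM in PP, 138 and 130.3 in PBP, 307 and 362 in PL, and 296, 332 and 314 in PBL. LPS libraries were high throughout (log2 fold change 1.38 ± 0.09 (SE, adjusted p = 1.39e-13)). Traf6, the ubiquitin ligase downstream of MyD88, held 92.8 to 103 CPM in the PBS libraries and 131 to 164 in the LPS libraries (0.56 ± 0.09 (SE, adjusted p = 4.06e-05)), and Tlr2, the receptor for bacterial lipoproteins, 142 to 177 CPM in the PBS libraries and 182 to 247 in the LPS libraries (0.55 ± 0.09 (SE, adjusted p = 4.66e-05)). Traf6 was not called from peaks within 10 kb or 1 kb (0.03 to 0.68 over all alternatives). Cd14 (0.39) and Tlr7 (0.42), a sensor of single-stranded RNA, also rose. Tlr4, the LPS receptor, held 87.9 and 107 CPM in PP, 118 and 122 in PBP, 124 and 176 in PL, and 108, 122 and 110.4 in PBL. Its libraries overlapped, and the log2 fold change was 0.21 ± 0.12 (SE, adjusted p = 0.273). The arms gave 0.62 in the vehicle arm and -0.07 in the BLZ945 arm (adjusted p = 0.00353 and 0.855), with an adjusted p of 0.117 for the difference between them, and the same-day value was 0.44 (adjusted p = 0.0387), which passed the test. PL 3_4 was the highest library.

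NF-kB is held in the cytoplasm by IkB proteins, several of which are themselves induced by it. Of 22 loci of its subunits, inhibitors and partners 6 rose and 0 fell (5 and 0 with same-day values), with a median of 0.10. After Bcl3 (1.14 ± 0.09 (SE, adjusted p = 1.07e-11)) came Birc3, the ubiquitin ligase cIAP2, with 60.9 and 67.7 CPM in PP, 73.3 and 57.8 in PBP, 111 and 144 in PL, and 95.4, 124 and 132 in PBL. The LPS libraries were separate from the PBS libraries (0.91 ± 0.12 (SE, adjusted p = 7.45e-07)). Nfkbiz, an atypical IkB protein needed for secondary response genes such as Il6, held 191 to 211 CPM in the PBS libraries and 254 to 305 in the LPS libraries (0.43 ± 0.08 (SE, adjusted p = 0.000179)). Nfkbia, which encodes IkB-alpha, held 197 and 199 CPM in PP, 217 and 214 in PBP, 235 and 262 in PL, and 246, 268 and 275 in PBL. Its groups were separate too, but the change was small (0.31 ± 0.08 (SE, adjusted p = 0.00653)) and the same-day value was 0.26 (adjusted p = 0.118). The subunit genes Nfkb1 (0.03), Rela (-0.28) and Rel (0.04) were not called.

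Cytokines are the signals through which activated microglia act on other cells. Of 24 cytokine loci 9 rose and 0 fell (8 and 0 with same-day values), with a median of 0.31. Osm, oncostatin M of the interleukin-6 family, held 103 and 111 CPM in PP, 97.0 and 79.0 in PBP, 162 and 196 in PL, and 150.1, 182 and 162 in PBL. Every LPS library was above every PBS library (0.83 ± 0.10 (SE, adjusted p = 1.04e-07)). Il12a, a subunit of interleukin-12 and interleukin-35, held 59.7 to 72.5 CPM in the PBS libraries and 99.8 to 126 in the LPS libraries (0.76 ± 0.11 (SE, adjusted p = 6.81e-06)). Tnf, the early inflammatory cytokine, held 55.2 and 51.8 CPM in PP, 42.4 and 23.6 in PBP, 87.3 and 75.2 in PL, and 81.4, 86.3 and 64.5 in PBL. The groups were separate, PBP 3_4 was the lowest library, and the change was 0.91 ± 0.15 (SE, adjusted p = 2.77e-05), with 0.60 in the vehicle arm and 1.17 in the BLZ945 arm and a same-day value of 0.94 (adjusted p = 0.00101). Il1a (0.51), Csf1, the ligand of CSF1R (0.59), the interleukin-1 antagonist Il1rn (0.87) and Il10 (1.11) also rose.

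For the interleukins most used as markers of activation the locus sum and the single peaks differed. Il1b held 177 and 187 CPM in PP, 150.4 and 173 in PBP, 178 and 195 in PL, and 191, 162 and 155 in PBL. The groups overlapped throughout (0.05 ± 0.08 (SE, adjusted p = 0.794)), although 1 of its 6 tested peaks rose by 0.48 on the log2 scale. Il6 held 89.0 and 84.6 CPM in PP, 84.2 and 74.1 in PBP, 83.5 and 122 in PL, and 96.1, 97.2 and 108 in PBL. Most LPS libraries were above the PBS libraries, but PL 1_2 was not (0.30 ± 0.11 (SE, adjusted p = 0.0729)), and the locus was called without that library. Of 8 tested peaks nearest to Il6, chr5:30039754-30040256 rose with 14.8 and 10.0 CPM in PP, 5.51 and 9.08 in PBP, 19.0 and 30.5 in PL, and 21.1, 19.0 and 29.4 in PBL. There the LPS libraries were separate (1.39 ± 0.24 (SE, adjusted p = 8.04e-06)), while a peak at chr5:29936518-29936802 fell by 0.91.

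Chemokines recruit leukocytes. Of 19 CC and CXC loci 4 rose and 0 fell (3 and 0 with same-day values), with a median of 0.12. Cxcl10, an interferon-induced ligand of CXCR3, held 32.7 and 31.7 CPM in PP, 32.8 and 45.6 in PBP, 66.4 and 80.6 in PL, and 47.3, 74.4 and 80.9 in PBL. All LPS libraries exceeded all PBS libraries (0.98 ± 0.15 (SE, adjusted p = 1.90e-05)). Its neighbour Cxcl11 held 27.5 to 50.1 CPM in the PBS libraries and 64.5 to 77.4 in the LPS libraries (0.84 ± 0.14 (SE, adjusted p = 3.22e-05)), and Ccl5, a chemokine that attracts T cells, 67.7 to 93.7 CPM in the PBS libraries and 109 to 146 in the LPS libraries (0.66 ± 0.10 (SE, adjusted p = 1.95e-05)). Ccl12 rose by 0.48. The loci of Ccl2 (0.12 ± 0.09 (SE, adjusted p = 0.455)), Ccl3 (0.01 ± 0.10 (SE, adjusted p = 0.962)) and Ccl4 (0.26 ± 0.12 (SE, adjusted p = 0.181)), genes that microglia express early after stimulation, were not called. None of their 11 tested peaks was called, while 13% of all tested peaks were.

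Interferon-stimulated genes carry the antiviral response. Of 33 loci 9 rose and 0 fell (6 and 0 with same-day values), with a median of 0.15. Slfn2, a regulator of quiescence in immune cells, held 55.2 and 61.4 CPM in PP, 63.6 and 69.2 in PBP, 98.0 and 113 in PL, and 101, 126 and 121 in PBL. The groups were separate (0.84 ± 0.11 (SE, adjusted p = 6.73e-07)). Trim30a held 118 to 127 CPM in the PBS libraries and 169 to 228 in the LPS libraries (0.66 ± 0.09 (SE, adjusted p = 1.77e-06)), and Ifi207, of the DNA-sensing family of Ifi204, 17.9 to 27 CPM in the PBS libraries and 40.5 to 50.2 in the LPS libraries (0.97 ± 0.16 (SE, adjusted p = 4.31e-05)). The transcription factor genes Irf1 (-0.25 ± 0.12 (SE, adjusted p = 0.206)) and Irf7 (0.18 ± 0.16 (SE, adjusted p = 0.538)) and the effector gene Ifit3 (-0.30 ± 0.17 (SE, adjusted p = 0.283)) were not called.

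Feedback inhibitors limit the cytokine and LPS signals. Of 35 loci 9 rose and 2 fell (5 and 0 with same-day values), with a median of 0.11. Arid5a, which encodes an RNA-binding protein that stabilises Il6 mRNA and stands in this list as part of the same regulatory circuit, held 126 and 126 CPM in PP, 103 and 119 in PBP, 217 and 192 in PL, and 212, 226 and 203 in PBL. LPS libraries were near to each other and above all PBS libraries (0.84 ± 0.09 (SE, adjusted p = 1.29e-08)), and 3 of its 4 tested peaks rose, by up to 2.06. Il4ra, the receptor chain for interleukin-4, held 129 to 154 CPM in the PBS libraries and 201 to 229 in the LPS libraries (0.54 ± 0.08 (SE, adjusted p = 1.68e-05)). Socs3, the inhibitor of cytokine receptors that signal through STAT3, held 322 and 279 CPM in PP, 298 and 267 in PBP, 406 and 368 in PL, and 427, 437 and 423 in PBL. The LPS libraries were the higher ones (0.50 ± 0.08 (SE, adjusted p = 1.74e-05)). Zfp36l2, an mRNA decay factor, and Inpp5d, which encodes the phosphatase SHIP1, fell by 0.26 and 0.23, but were not called with same-day values (-0.24 (adjusted p = 0.152) and -0.23 (adjusted p = 0.14)). Zfp36l2 was not called either without PP 3_4, PBP 1_2, PBP 3_4, PBL 3_4 or PBL 4_5 (-0.64 to -0.23 over all alternatives), nor Inpp5d without PP 1_2, PP 3_4, PBP 3_4, PL 1_2, PBL 3_4 or PBL 4_5 (-0.38 to -0.18).

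The immediate early and AP-1 genes are switched on within minutes and include the partners of AP-1. Of 29 loci 5 rose and 1 fell (3 and 1 with same-day values), with a median of 0.03. Ier3, a stress-induced regulator of cell survival, held 74.4 and 99.4 CPM in PP, 79.7 and 84.7 in PBP, 144 and 154 in PL, and 147, 159 and 162 in PBL. All LPS libraries were above all PBS libraries (0.87 ± 0.10 (SE, adjusted p = 3.88e-08)). Fosl2, an AP-1 subunit, held 158 to 183 CPM in the PBS libraries and 233 to 263 in the LPS libraries (0.55 ± 0.08 (SE, adjusted p = 6.81e-06)), and Batf, another, 160.4 to 169 CPM in the PBS libraries and 192 to 235 in the LPS libraries (0.34 ± 0.08 (SE, adjusted p = 0.00452)). Jund fell (-0.32 ± 0.09 (SE, adjusted p = 0.0123)), with -0.50 in the vehicle arm and -0.19 in the BLZ945 arm, its libraries overlapped in the BLZ945 arm, and it was not called without PP 3_4 or PBP 1_2 (-0.41 to -0.27 over all alternatives). Fos held 419 and 409 CPM in PP, 385 and 424 in PBP, 407 and 370.2 in PL, and 399, 435 and 403 in PBL. Its libraries overlapped (-0.02 ± 0.07 (SE, adjusted p = 0.888)), as did those of Jun (-0.12 ± 0.08 (SE, adjusted p = 0.364)).

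Of 31 loci of adhesion, costimulation and antigen presentation 13 rose and 0 fell (8 and 0 with same-day values), with a median of 0.28. Trem1, a receptor that amplifies Toll-like receptor signals and that neutrophils and monocytes also carry, held 12.4 and 3.17 CPM in PP, 9.64 and 6.52 in PBP, 20.9 and 23.3 in PL, and 21.4, 35.7 and 36.5 in PBL. The levels were low and the LPS libraries all higher (1.81 ± 0.25 (SE, adjusted p = 3.42e-06)). Fpr1 and Fpr2, receptors for formyl peptides that are also typical of neutrophils, rose by 1.58 and 0.56. Beside them, the summed neutrophil markers (4 of 11 with a tested locus) were 79.69 to 95.21 CPM without and 69.52 to 88.97 CPM with LPS, and the summed monocyte markers (4 of 10) 151.3 to 183.2 CPM and 175.1 to 230.5 CPM, and the part of these cells was not tested. Ptgs2, which encodes cyclooxygenase-2, held 12.2 to 22.2 CPM in the PBS libraries and 31.1 to 37.9 in the LPS libraries (0.97 ± 0.18 (SE, adjusted p = 0.00016)). Cd83, a maturation marker, held 234 to 264 CPM in the PBS libraries and 279 to 345 in the LPS libraries (0.38 ± 0.08 (SE, adjusted p = 0.00064)) and had a same-day value of 0.28 (adjusted p = 0.0781). The costimulatory ligands Cd86 (0.41) and Cd80 (0.38) rose, whereas the MHC class II loci H2-Aa (0.28), H2-Ab1 (-0.07) and Cd74 (0.25) were not called.

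Glucocorticoids are released from the adrenal gland in systemic inflammation and act through the receptor Nr3c1. Of 20 loci of this receptor and its targets 8 rose and 0 fell (6 and 0 with same-day values), with a median of 0.18. Mt2, a metallothionein that glucocorticoids and metals induce, held 37.2 and 50.8 CPM in PP, 27.6 and 22.8 in PBP, 74.0 and 71.7 in PL, and 69.5, 69.4 and 75.4 in PBL. The LPS libraries lay close together above the PBS libraries (1.13 ± 0.15 (SE, adjusted p = 6.71e-07)), and the arms gave 0.72 in the vehicle arm and 1.49 in the BLZ945 arm. The neighbouring Mt1 held 111 to 149 CPM in the PBS libraries and 189 to 222 in the LPS libraries (0.63 ± 0.09 (SE, adjusted p = 3.22e-06)), and Hif3a, a hypoxia-inducible factor subunit, 73.0 to 93.7 CPM in the PBS libraries and 106 to 147 in the LPS libraries (0.60 ± 0.10 (SE, adjusted p = 7.58e-05)). Zbtb16, a transcription factor gene used as a marker of glucocorticoid action, had an intronic peak (chr9:48723398-48723981) beyond 50 kb of its start site with 5.27 and 6.00 CPM in PP, 4.89 and 6.05 in PBP, 25 and 31.5 in PL, and 18.3, 20.4 and 25 in PBL. Signal there was weak without LPS and higher in each LPS library (2.13 ± 0.26 (SE, adjusted p = 7.02e-10)), and this peak was chosen after its values were seen. Fkbp5, a co-chaperone of the receptor, held 408 and 356 CPM in PP, 319 and 377 in PBP, 481 and 404 in PL, and 450.4, 500.4 and 463 in PBL. The groups overlapped in the vehicle arm (0.34 ± 0.08 (SE, adjusted p = 0.0032), same-day value 0.28 (adjusted p = 0.0812)), and the locus was not called without PBP 1_2 (0.15 to 0.41 over all alternatives).

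Activated macrophages shift to glycolysis. Of 28 loci of glycolysis, hypoxia and itaconate 6 rose and 1 fell (6 and 1 with same-day values), with a median of 0.14. Slc2a1, the glucose transporter GLUT1, held 122 and 135 CPM in PP, 126 and 145 in PBP, 182 and 214 in PL, and 215, 218 and 210.3 in PBL. The groups were separate (0.65 ± 0.09 (SE, adjusted p = 9.41e-07)). Arg1, which encodes arginase, held 14.7 to 27.5 CPM in the PBS libraries and 28.8 to 48.1 in the LPS libraries (1.01 ± 0.19 (SE, adjusted p = 0.000278)), and Slc7a11, the cystine-glutamate exchanger, 117 to 168 CPM in the PBS libraries and 176 to 251 in the LPS libraries (0.55 ± 0.10 (SE, adjusted p = 0.000319)). Within Pfkfb3, an activator of glycolysis whose locus rose by 0.31, 1 peak (chr2:11530029-11530530) rose by 2.43. It held 8.44 and 9.0 CPM in PP, 6.12 and 3.78 in PBP, 29.7 and 37.4 in PL, and 23.9, 41.8 and 40.5 in PBL, with all LPS libraries above all PBS libraries, and was chosen after its values were seen. Egln1, an oxygen sensor, fell (-0.51 ± 0.17 (SE, adjusted p = 0.0439)), with -0.94 in the vehicle arm and -0.22 in the BLZ945 arm, and its libraries overlapped in the BLZ945 arm. This call held in 13 of 23 alternatives (-0.76 to -0.41 over all alternatives) and was lost with DESeq2 and without PP 1_2, PP 3_4, PBP 1_2, PL 1_2, PL 3_4 or PBL 4_5. Acod1, the enzyme that makes itaconate, held 31.6 and 33.9 CPM in PP, 24.4 and 25.2 in PBP, 24.0 and 33.4 in PL, and 34.0, 27.8 and 28.8 in PBL, and its only tested peak was not called (0.07 ± 0.17 (SE, adjusted p = 0.847)).

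Disease-associated microglia genes mark microglia around plaques and in degeneration. Of 27 loci 6 rose and 0 fell (4 and 0 with same-day values), with a median of 0.10. Cd300lf, a lipid receptor, held 102 to 109 CPM in the PBS libraries and 140.3 to 179 in the LPS libraries (0.57 ± 0.09 (SE, adjusted p = 2.32e-05)). Cst7, which encodes cystatin F, held 33.8 and 27.5 CPM in PP, 23.8 and 18.7 in PBP, 36.0 and 53.7 in PL, and 41.4, 60.0 and 59.1 in PBL. The LPS libraries were higher within each arm, but PL 1_2 was close to PP 1_2 (1.01 ± 0.18 (SE, adjusted p = 0.000117)). The arms gave 0.56 in the vehicle arm, which was not called there, and 1.35 in the BLZ945 arm (adjusted p = 0.152 and 4.48e-06). Spp1, osteopontin, held 21.2 to 30.2 CPM in the PBS libraries and 34.6 to 61.5 in the LPS libraries (0.82 ± 0.17 (SE, adjusted p = 0.00101)).

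**Figure D4:**
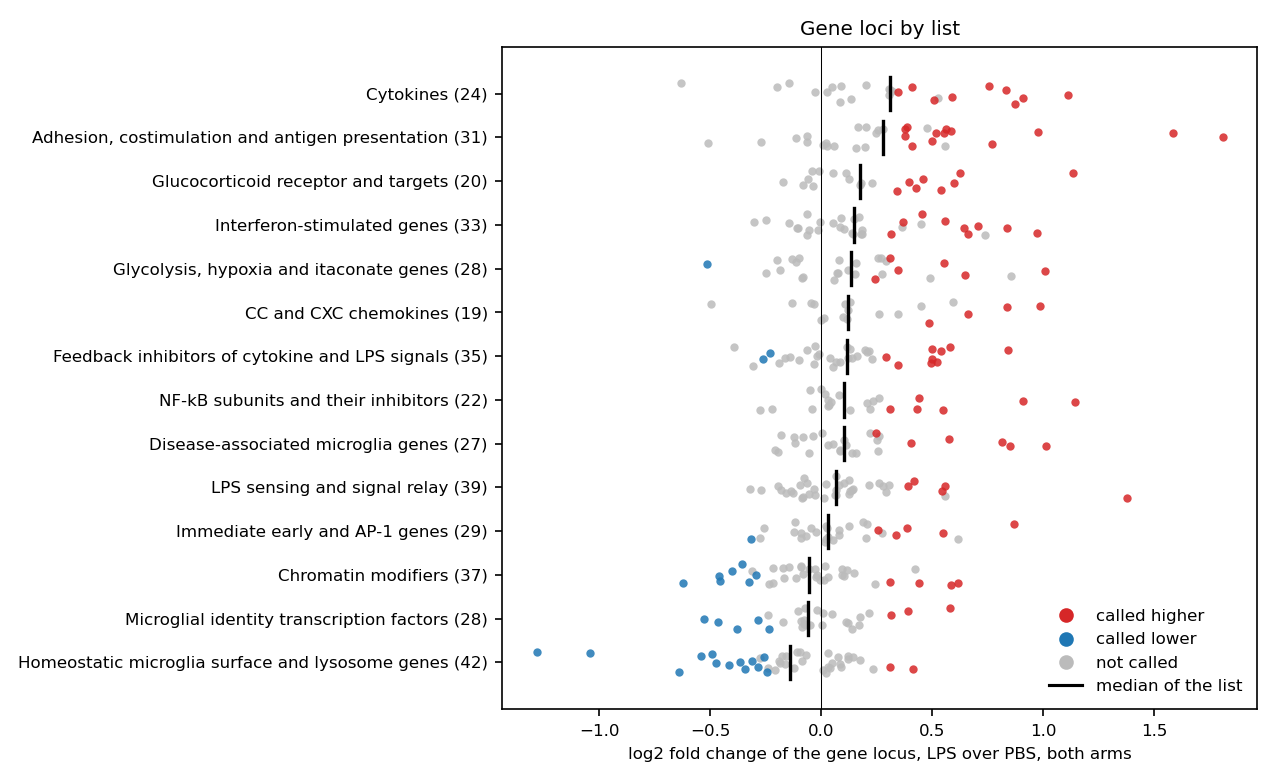
Log2 fold change of LPS over PBS (x axis) of each tested locus in the gene lists (y axis, number of tested loci in brackets), 1 point per locus, coloured by call, with the median of each list drawn. Called loci of the signalling, cytokine and metabolic lists lie mostly to the right of 0, and those of the homeostatic list mostly to the left.

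Homeostatic genes mark resting microglia and include their surface receptors and lysosomal proteins. Of 42 loci 13 fell and 2 rose (8 and 1 with same-day values), with a median of -0.14, while 3.56% of all loci fell. The Siglech locus held 118 and 144 CPM in PP, 114 and 141 in PBP, 70.2 and 75.2 in PL, and 54.7, 50.6 and 61.0 in PBL. LPS libraries were the lower ones in both arms (-1.04 ± 0.11 (SE, adjusted p = 6.67e-09)). Gpr34 held 44.0 and 52.9 CPM in PP, 54.0 and 73.3 in PBP, 25.3 and 28.1 in PL, and 28.1, 17.9 and 20.2 in PBL. It was lower in every LPS library (-1.28 ± 0.16 (SE, adjusted p = 5.92e-07)). Mertk held 208 to 274 CPM in the PBS libraries and 146 to 177 in the LPS libraries (-0.64 ± 0.09 (SE, adjusted p = 1.19e-06)). Tmem119, a microglial surface protein of unknown function, held 85.7 and 93.1 CPM in PP, 92.5 and 136 in PBP, 75.2 and 66.9 in PL, and 80.6, 77.9 and 68.4 in PBL. PBP 3_4 was the highest library and all LPS libraries were below all PBS libraries (-0.49 ± 0.11 (SE, adjusted p = 0.00258)), but without PBP 3_4 the value was -0.32 and the locus was not called. It was not called from peaks within 10 kb or 1 kb either, nor in the vehicle arm alone (-0.33, adjusted p = 0.228).

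Cx3cr1, the fractalkine receptor through which neurons restrain microglia, held 219.8 and 220.0 CPM in PP, 274 and 256 in PBP, 202 and 209.6 in PL, and 204, 217 and 203 in PBL. The difference was small (-0.25 ± 0.08 (SE, adjusted p = 0.0359)), its same-day value was -0.24 (adjusted p = 0.167), it stayed called only without PP 1_2 or PL 3_4 among the 9 fits that left out a library (-0.72 to -0.18 over all alternatives), and 2 of its 5 tested peaks fell, the promoter peak by 0.76. P2ry12, the purinergic receptor that guides microglial processes, held 245 and 235 CPM in PP, 285 and 318 in PBP, 242 and 331 in PL, and 267, 278 and 275 in PBL. Its groups overlapped, with a log2 fold change of 0.03 ± 0.09 (SE, adjusted p = 0.888). None of its 8 tested peaks was called, while 13% of all tested peaks were. Csf1r held 202 and 226 CPM in PP, 232 and 259.8 in PBP, 255 and 246 in PL, and 250.0, 239 and 245 in PBL. That locus was not called either (0.09 ± 0.08 (SE, adjusted p = 0.53)), although 2 of its 6 tested peaks rose, the larger by 1.34 in an intron. Cd33, a sialic acid-binding receptor (0.41 ± 0.09 (SE, adjusted p = 0.00192)), and Itgam, the CD11b used in the sort (0.31 ± 0.09 (SE, adjusted p = 0.0175)), rose. Itgam had a same-day value of 0.21 (adjusted p = 0.27) and was not called without PBP 1_2 or PBL 3_4 (0.14 to 0.37 over all alternatives).

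Transcription factors of microglial identity went in both directions. Of 28 loci 5 fell and 3 rose (2 and 4 with same-day values), with a median of -0.06. Sall1 held 170.2 and 139 CPM in PP, 175 and 151 in PBP, 110.0 and 89.0 in PL, and 138, 108 and 116 in PBL. LPS libraries were below PBS libraries in both arms (-0.53 ± 0.10 (SE, adjusted p = 0.000178)). Maf (-0.47 ± 0.11 (SE, adjusted p = 0.00249), same-day value -0.41 (adjusted p = 0.0598)) and Bhlhe41 (-0.38 ± 0.09 (SE, adjusted p = 0.00288)), factors of tissue macrophages, also fell. Zeb2, a regulator of macrophage identity, held 195 and 215 CPM in PP, 218 and 222 in PBP, 277 and 389.9 in PL, and 265, 336 and 319 in PBL. It was higher in each LPS library and highest in PL 3_4 (0.58 ± 0.09 (SE, adjusted p = 2.65e-05)). Bach1 (0.39 ± 0.09 (SE, adjusted p = 0.00154)), a repressor that senses haem, and Tcf4 (0.32 ± 0.08 (SE, adjusted p = 0.00495)) rose as well. Spi1, which encodes PU.1 (-0.09), and Irf8 (0.01) were not called.

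Chromatin modifiers also had calls in both directions. Of 37 loci 4 rose and 7 fell (2 and 6 with same-day values), with a median of -0.05. The histone deacetylase gene Hdac4 held 268 and 301 CPM in PP, 298 and 296 in PBP, 418 and 472 in PL, and 402, 474 and 466 in PBL. Every LPS library exceeded every PBS library (0.62 ± 0.08 (SE, adjusted p = 3.80e-07)), and 5 of its 8 tested peaks rose. Its class relative Hdac5 held 76.6 and 68.8 CPM in PP, 75.8 and 63.5 in PBP, 51.2 and 38.8 in PL, and 51.8, 48.6 and 42.8 in PBL. Here every LPS library was lower (-0.62 ± 0.12 (SE, adjusted p = 0.00056)). Dnmt3a, a DNA methyltransferase, held 358 to 378 CPM in the PBS libraries and 273 to 307 in the LPS libraries (-0.35 ± 0.07 (SE, adjusted p = 0.00062)), and Ep300, a histone acetyltransferase, 133 to 159.7 CPM in the PBS libraries and 96.7 to 124 in the LPS libraries (-0.40 ± 0.09 (SE, adjusted p = 0.00266)). Tet2, which oxidises methylcytosine (0.44 ± 0.10 (SE, adjusted p = 0.00178)), and Hdac7 (0.58 ± 0.16 (SE, adjusted p = 0.0144), same-day value 0.34 (adjusted p = 0.37)) rose. Hdac7 was not called without PBP 1_2, PBP 3_4 or PBL 3_4 (0.02 to 0.68 over all alternatives). Kdm6b, a histone demethylase known to be induced by LPS, was not called (0.09 ± 0.08 (SE, adjusted p = 0.549)), although 1 of its 8 tested peaks fell by 0.52.

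The letters of the promoters were searched for the binding motifs of factors known to act in LPS-treated macrophages. The windows ran from 250 bases before to 50 bases after a start site (RefSeq, GRCm38.p6), and 10809 of 32817 windows overlapped a tested peak by at least 150 bases, of which 234 lay over a risen and 381 over a fallen peak. Both strands were searched for AP-1 (TGANTCA), CRE (TGACGTCA), PU.1 (GAGGAAGT), C/EBP (TTGCNNAA), IRF (GAAA, any 2 bases, GAAA), MEF2 (CTA, any 4 bases, TAG) and the kappa-B motif. AP-1 was found in 20.1% of windows over risen peaks (15.1% to 25.8%, exact binomial), in 3.15% over fallen peaks, in 3.93% over peaks that were not called and in 7.81% of all windows. The kappa-B motif was found in 12.4% (8.46% to 17.3%), 4.72%, 4.98% and 4.5% in the same order. C/EBP stood at 14.5% (10.3% to 19.7%) over risen peaks, 7.42% over peaks not called and 10.8% in all windows. PU.1 stood at 7.26%, 3.58% and 3.2% in this order, and IRF at 7.26%, 2.91% and 3.43%. CRE stood at 3.85% over risen peaks against 3.87% over peaks not called, and MEF2 at 2.99% against 2.74%. A match is a description of the letters and not a bound site, and neighbouring genes can share a window.

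Matches of different motifs seldom overlapped: AP-1 overlapped PU.1 in 4 windows and C/EBP in 2. Over the fits without PL 3_4, without PBP 1_2 and with same-day values, 18.9% to 24.4% of the windows over risen peaks held AP-1 and 12.1% to 13.0% held kappa-B. C/EBP was less steady, at 11.7% to 17.1% over risen and 6.57% to 9.82% over fallen peaks. Without PL 3_4 its shares were close, 11.7% over risen and 9.82% over fallen peaks. With windows of the 250 bases before the start alone, the shares over risen peaks were 13.7% for AP-1 and 9.83% for kappa-B.

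The promoters below show these matches at genes whose promoter peak rose, in 120 bases each (RefSeq, GRCm38.p6, 5′ to 3′ on the gene's strand), with the match in capitals. They are picked examples, and a promoter was printed only if it held the motif looked up for it. Bcl3 was looked up for kappa-B, gave no such window and is not shown. The examples thus do not bear on how common the motifs are. Ier3 carries the kappa-B motif, and Cd244a, Rcan1, Mt2 and Tnfaip6 carry AP-1. A match to the MEF2 letters at Ier3, with a G among its free central bases, and a C/EBP match at Cd244a are left in lower case.
Ier3, chr17:35821566-35821685, plus strand: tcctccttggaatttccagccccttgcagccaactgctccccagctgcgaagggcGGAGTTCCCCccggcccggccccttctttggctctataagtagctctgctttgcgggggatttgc
Cd244a, chr1:171559014-171559133, plus strand: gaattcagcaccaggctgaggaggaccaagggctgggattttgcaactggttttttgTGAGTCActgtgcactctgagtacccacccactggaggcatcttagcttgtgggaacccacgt
Rcan1, chr16:92400126-92400245, minus strand: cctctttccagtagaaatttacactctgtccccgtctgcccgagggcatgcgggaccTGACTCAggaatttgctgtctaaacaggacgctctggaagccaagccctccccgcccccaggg
Mt2, chr8:94172482-94172601, plus strand: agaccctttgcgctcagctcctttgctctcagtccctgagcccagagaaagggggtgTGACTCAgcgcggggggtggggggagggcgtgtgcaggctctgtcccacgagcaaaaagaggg
Tnfaip6, chr2:52037914-52038033, plus strand: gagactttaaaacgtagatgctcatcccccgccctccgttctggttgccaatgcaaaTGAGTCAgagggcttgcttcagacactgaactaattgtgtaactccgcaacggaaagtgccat

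The peak over the Ier3 promoter held 29.5 and 44.0 CPM in PP, 25.7 and 28.7 in PBP, 64.2 and 66.3 in PL, and 69.0, 75.2 and 75.8 in PBL. Every LPS library lay above every PBS library (1.17 ± 0.15 (SE, adjusted p = 2.07e-09)). At Cd244a, which encodes a receptor of the SLAM family, there were 24.3 and 16.0 CPM in PP, 22.0 and 19.7 in PBP, 60.6 and 54.5 in PL, and 77.4, 72.9 and 54.5 in PBL. The groups were separate (1.61 ± 0.16 (SE, adjusted p = 2.70e-12)). At Rcan1, an inhibitor of calcineurin, there were 33.7 and 32.0 CPM in PP, 25.1 and 24.2 in PBP, 59.4 and 71.6 in PL, and 70.4, 84.0 and 67.0 in PBL. The LPS libraries were the high ones (1.33 ± 0.15 (SE, adjusted p = 7.93e-11)). The Mt2 promoter peak rose by 1.23 and that of Tnfaip6, which encodes the anti-inflammatory protein TSG-6, by 2.22, from 0.756 to 3.16 CPM in the PBS libraries and 7.43 to 9.86 in the LPS libraries.

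Promoters of homeostatic genes are shown as well. No contrast with the promoters above is read from them, since those were picked for a match. Cx3cr1 has a match to the MEF2 motif in capitals. The 120 bases shown for Mertk and Sall1 hold none of the 7 motifs and are in lower case throughout.
Cx3cr1, chr9:120068299-120068418, minus strand: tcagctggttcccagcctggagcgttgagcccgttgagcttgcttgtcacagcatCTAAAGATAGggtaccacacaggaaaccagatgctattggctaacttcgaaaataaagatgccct
Mertk, chr2:128698795-128698914, plus strand: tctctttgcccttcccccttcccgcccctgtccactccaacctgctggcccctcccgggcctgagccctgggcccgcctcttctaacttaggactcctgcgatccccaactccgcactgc
Sall1, chr8:89043513-89043632, minus strand: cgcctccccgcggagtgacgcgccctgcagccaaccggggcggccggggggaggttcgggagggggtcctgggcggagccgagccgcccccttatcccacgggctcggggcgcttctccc

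The Cx3cr1 promoter peak held 56.9 and 52.0 CPM in PP, 82.0 and 62.0 in PBP, 41.6 and 40.6 in PL, and 35.2, 40.9 and 33.5 in PBL. It was lower in each LPS library (-0.76 ± 0.14 (SE, adjusted p = 2.90e-05)). Over the windows of all fallen peaks the share with a match to the MEF2 letters was 3.94%, against 2.74% over peaks that were not called.

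**Figure D5:**
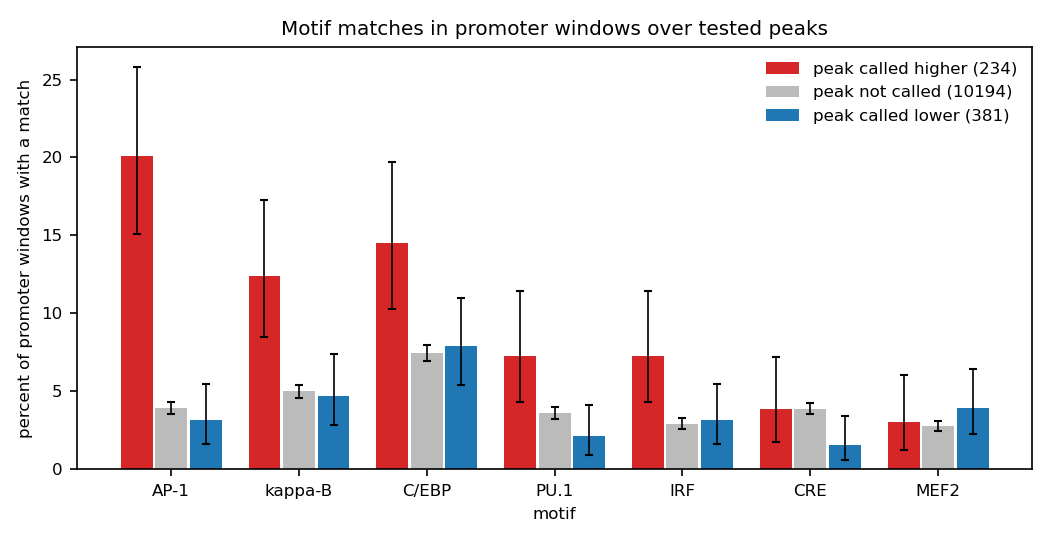
Percent of promoter windows holding each motif (y axis) for 7 motifs (x axis), over peaks called higher, called lower and not called, with 95% exact binomial intervals as error bars. The AP-1 and kappa-B bars over risen peaks reach 20.1% and 12.4%, and their bars over fallen and uncalled peaks lie between 3.15% and 4.98%.

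MicroRNAs are short RNAs that repress mRNAs through their seed, bases 2 to 8. Of 1005 hairpins in RefSeq 467 had a tested peak within 10 kb, and at least 1 such peak rose for 40 of them (8.57%) and fell for 32 (6.85%). Of all tested peaks 8.77% rose and 4.18% fell, and since a hairpin can have several peaks nearby, nothing about miRNA genes as a group is read from these shares. Mature sequences are shown for miRNAs known for roles in macrophages whose hairpin had a called peak nearby (RefSeq, GRCm38.p6, 5′ to 3′, seed in capitals), and they were chosen after the values were seen. The 2 members of the miR-29 family share the seed AGCACCA.
mmu-miR-21a-5p, chr11:86584120-86584141, minus strand: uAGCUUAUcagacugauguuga
mmu-miR-146b-5p, chr19:46342790-46342811, plus strand: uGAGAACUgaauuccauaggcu
mmu-miR-29a-3p, chr6:31062673-31062694, minus strand: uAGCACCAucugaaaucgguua
mmu-miR-29b-3p, chr6:31063025-31063047, minus strand: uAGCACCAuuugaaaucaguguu
mmu-let-7i-5p, chr10:122985698-122985719, minus strand: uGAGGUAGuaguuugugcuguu

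The miR-21a hairpin lies 2566 bp from a promoter peak annotated to Vmp1 (chr11:86586724-86587535), which held 42.2 and 30.0 CPM in PP, 29.4 and 27.2 in PBP, 71.3 and 78.0 in PL, and 84.5, 91.0 and 79.5 in PBL. All LPS libraries were above all PBS libraries (1.35 ± 0.14 (SE, adjusted p = 3.85e-12)). Near miR-146b, which targets the LPS relay, the peak chr19:46340861-46341279, 1483 bp from the hairpin, held 22.1 and 12.0 CPM in PP, 11.0 and 12.1 in PBP, 27.3 and 36.4 in PL, and 31.7, 36.2 and 31.6 in PBL. It was higher in each LPS library (1.25 ± 0.20 (SE, adjusted p = 2.08e-06)). The miR-29a and miR-29b-1 hairpins lie 2636 and 2290 bp from chr6:31065383-31065915, which held 23.2 and 20.0 CPM in PP, 24.5 and 21.2 in PBP, 35.1 and 44.4 in PL, and 46.5, 52.5 and 41.2 in PBL. The LPS libraries were again the higher ones (0.96 ± 0.17 (SE, adjusted p = 1.17e-05)). Near let-7i, 2 peaks fell, the stronger by 1.01 at chr10:122991410-122991817, which held 29.5 and 21.0 CPM in PP, 20.8 and 16.6 in PBP, 13.7 and 12.8 in PL, and 8.45, 5.57 and 11.8 in PBL, with each LPS library below each PBS library. Accessibility near a hairpin does not show the level of the miRNA, which was not measured.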

How the data were processed

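ATAC-seq libraries of sorted mouse microglia were compared across 9 of 13 libraries. The deposited table holds, for 1 set of 38620 peaks, 1 estimated count for every library without normalization, in multiples of 0.5, per the file headers and the values. The submitters' processing notes name Bowtie2 2.2.6 and cutadapt 1.9.1, MACS2 2.1.1 with ChIPseeker 1.38, HOMER 4.9.1, deepTools 3.3.0, bedtools 2.26, Picard 1.126, SAMtools 1.7, and the builds GRCm38 and mm10. The counting tool and any shift of read ends for the transposase are not given in the sources used here. Peak annotation and distance to a start site are columns of the deposited table, and isolation day and sorter come from a deposited sample sheet.

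Rounded counts entered edgeR 4.0.16 (R 4.3.3): filterByExpr with a minimum count of 10 (1437 peaks removed), TMM scaling, a robust quasi-likelihood fit with arm and LPS, two-sided F tests and Benjamini-Hochberg adjustment over all tested features. A feature was called, and is said to have risen or fallen, at an adjusted p under 0.05. Levels are TMM-scaled CPM computed from the deposited counts. The SE is the absolute log2 fold change divided by the square root of F. Arms and their difference were tested in a model with 4 group means. Loci summed the peaks within 50 kb of a gene's start site. DESeq2 1.42.0 and limma 3.58.1 served as alternatives, and the procedure was tested on simulated data, where 64% of peaks and 93.9% of loci changed by 2-fold were recovered. Promoter and miRNA sequences are from RefSeq (GRCm38.p6). Motifs were searched in promoter windows. Distal peaks were not searched, since no genome sequence was used here.

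Named peaks are the 14 of smallest p among rises and among falls, 1 per gene at most, whose LPS and PBS libraries did not overlap within either arm. Named loci are the 3 with the smallest p per list and direction and a fixed set of inflammatory and microglial genes. Other genes and peaks were chosen after their values were seen. The members of the comparison and the gene lists were chosen with earlier results of these data known. The fits without PL 3_4, without PBP 1_2 and with isolation day for the classes, distances and motifs, and the window of 250 bases, were chosen after seeing the data.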

Additional observations from a re-analysis of the deposited data

Results flagged for a closer look

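Among 58 groups of 4 or 5 libraries in which the CPM of the named peaks was screened for a library standing apart by Dixon's criterion, 3 had one, and chance gives about 1 in 20. All 3 were PBS groups. PP 1_2 held 8.44 CPM at 1700006H21Rik_6, a peak that rose with LPS, below the other PBS libraries. PBP 1_2 held 36.7 CPM at the Siglech peak Siglech_3, below the other PBS libraries but above all LPS libraries. PBP 3_4 held 77.2 CPM at 4933432K03Rik_1, a peak that fell, above the other PBS libraries.

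At 15 peaks the LPS effect differed between the arms by edgeR's test of the difference itself at an adjusted p under 0.05. Given as the log2 effect in the BLZ945 arm minus that in the vehicle arm, the differences at the 4 peaks near Mid1 were 1.80 (Mid1_1), 1.22 (Mid1_13), 1.32 (Mid1_12) and 0.95 (Mid1_6), and reads there are uncertain because the gene spans the pseudoautosomal boundary. The other positive differences were 1.73 at Mir704_5, 2.14 at Myo1d_2, 1.18 at Cep112_1, 1.08 at Inpp5k_1, 0.85 at Srsf2_1, 1.01 at Srrm1_1, 2.52 at Bmper_12 and 1.25 at Hps4_2. The negative ones were -1.17 at Celf4_14, -3.05 at Slc16a7_6 and -7.40 at Cysltr1_4. Both PP libraries held 0 counts at Cysltr1_4, so its fitted value depends on the prior count and gives no size.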

How the results depend on the processing

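The pooled comparison called 4816 peaks and 1374 loci. Scaling with DESeq2's size factors or by total count, no filter, unrounded counts, no arm term and limma kept both numbers within 1.5 times, although total scaling moved the share of higher calls among loci from 64.6% to 55.7%. The numbers moved further to 2930 peaks and 866 loci with isolation day in place of the arm, to 2694 and 370 with a minimum fold of 1.2, and to 2316 and 812 with DESeq2. They were 2986 peaks after thinning all libraries to the lowest total, 2097 loci in a model of all 13 libraries and 477 loci from peaks within 1 kb. Leaving out each library in turn gave 3036 to 4866 peaks and 885 to 1521 loci, the lowest without PBP 1_2, 642 to 4880 peaks in the vehicle arm, 1513 to 3144 in the BLZ945 arm, 0 to 901 for the difference between the arms, and -3.40 to -0.995 percentage points for the promoter share. With a replicate block the calls were 4167 peaks and 1148 loci over both arms, 3029 in the vehicle arm, 3129 in the BLZ945 arm and 100 for the difference. DESeq2 called 0 for the difference, for which edgeR gave 3808 peaks at an unadjusted p under 0.05. The pairing was only by number, since deviations of same-numbered libraries correlated at 0.00822 to 0.164. Of 28 named peaks 27 kept their call in every alternative run, as did 26 of the 58 called named loci, and 49 of these kept it whichever library was left out. No direction reversed. The cause of these changes was not tested. In data simulated at the depth of these libraries, 20% of 1.5-fold changes were recovered per peak and 74% per locus. The planned motif shares in the centres of peaks were not run.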
